A study of Mus musculus with 12 samples.

Results

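Respiratory complexes II to V were examined in the tibialis anterior muscle of mice through the nuclear genes of their subunits. A gene belonged to the set when its name on the array matched Sdha to Sdhd, Uqcr, Cyc1, Cycs, Cox4 to Cox8 followed by a, b or c, or Atp5, and each gene was represented by its brightest probe by the mean over 12 arrays. The rule found 48 of the 34821 gene names on the array, with 78 of its 55681 probes. They were 4 genes of complex II, 9 of complex III, the somatic cytochrome c gene Cycs, 15 of complex IV and 15 of complex V. The other 4 names are no subunit of these complexes, namely Cox7a2l, Atp5s, Atp5sl and the pseudogene Atp5c1-ps. The rule did not match Cox4i1 and Cox4i2, because their names carry an i. RNA of 3 mice per group was hybridised in 1 colour, with 1 array per mouse. Young wild-type (WT) and young TauTKO mice were 3 months old, and old WT and old TauTKO mice 18 months old by the labels. All mice were male and of the C57BL6 strain. TauTKO mice carry a knockout of the taurine transporter TauT in the whole body, and the WT mice were littermates from heterozygous parents. Values are log2 of the processed intensity over the 75th percentile of the array, and a probe was tested when it was well above background on every array of at least 1 group. A gene passed when the limma adjusted p was under 0.05, and was called when its change was also at least 1.8-fold.

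Complexes II to V, with complex I, make up the machinery of oxidative phosphorylation. Complex II (succinate dehydrogenase) passes electrons from succinate to ubiquinone, complex III passes them from ubiquinol to cytochrome c, complex IV (cytochrome c oxidase) passes them to oxygen, and complex V (ATP synthase) uses the proton gradient that complexes III and IV help to build to make ATP. Most subunits are encoded in the nucleus, and a few core subunits of complexes III, IV and V in mitochondrial DNA. Cytochrome c oxidase has subunits with a form of striated muscle and a ubiquitous form, as Cox6a2 and Cox6a1, Cox7a1 and Cox7a2, and Cox8b and Cox8a. The genes Atp5g1, Atp5g2 and Atp5g3 encode the same mature subunit c of the rotor of ATP synthase behind different import sequences.

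The 75th percentile of the processed intensity lay between 429.8 and 562.1 on the 12 arrays, with 65.4% to 74.3% of probes detected well above their background. Slide 1 held the young mice and slide 2 the old mice, both genotypes on each, and therefore an effect of age and one of the slide cannot be told apart. The single probe of Slc6a6, the gene of TauT (mm9 chr6:91708620-91708679), was higher on the arrays labelled TauTKO, by 0.85 log2 in old mice (SE 0.19, adjusted p = 0.0297) and by 0.79 in young mice (SE 0.19, adjusted p = 0.0987), and the sources used here do not say whether it lies in the deleted part. Old TauTKO replicate 1 stood apart in fibre type genes. The median of the 10 slow fibre genes was 2.53 log2 above the young WT mean on that array and lay between -0.53 and 0.25 on the other 11. The log2 level of Myh7, the slow myosin heavy chain, was 4.99 there and -0.12 and -0.89 in old TauTKO replicates 2 and 3. The median of the 8 fat cell genes was also highest there, at 1.75. Counts and calls that changed without this array are also given without it.

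Promoters were read from a RefSeq table of GRCm38.p6, 250 bases before and 50 after the start, in the direction of transcription. Of the 42 subunit genes with a tested probe, 34 had an entry, and Cox6a2 is among those without one. The promoters below belong to the ubiquitous Cox6a1, to the muscle and ubiquitous forms Cox8b and Cox8a, and to Atp5g2, the genes on which the results by isoform and by test turn. Capitals mark matches on either strand to 7 sets of letters. For the nuclear respiratory factor NRF1 these were GCGCATGC. For factors of the ETS family, among them GABP, they were CCGGAAG. For YY1 the letters AAGATGGC were searched. Oestrogen-related receptors were searched for as AAGGTCA, the E-box of myogenic factors as CAGCTG, and the TATA box as TATAAA. The letters for Sp factors were GGGCGG. The lines stand for Cox6a1 at chr5:115348909-115349208, Cox8b at chr7:140900397-140900696, Cox8a at chr19:7217567-7217866 and Atp5g2 at chr15:102670998-102671297, each on the minus strand.
Cox6a1: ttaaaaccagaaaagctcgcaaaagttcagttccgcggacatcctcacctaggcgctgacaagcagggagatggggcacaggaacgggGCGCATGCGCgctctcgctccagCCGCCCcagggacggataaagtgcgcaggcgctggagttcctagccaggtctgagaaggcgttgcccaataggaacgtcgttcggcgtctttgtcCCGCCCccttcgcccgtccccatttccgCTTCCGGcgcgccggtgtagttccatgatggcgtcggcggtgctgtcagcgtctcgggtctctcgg
Cox8b: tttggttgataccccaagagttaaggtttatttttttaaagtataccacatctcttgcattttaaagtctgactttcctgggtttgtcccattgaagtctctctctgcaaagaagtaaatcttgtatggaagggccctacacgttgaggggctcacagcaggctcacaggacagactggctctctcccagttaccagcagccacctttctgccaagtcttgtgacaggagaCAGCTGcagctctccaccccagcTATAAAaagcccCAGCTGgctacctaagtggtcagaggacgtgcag
Cox8a: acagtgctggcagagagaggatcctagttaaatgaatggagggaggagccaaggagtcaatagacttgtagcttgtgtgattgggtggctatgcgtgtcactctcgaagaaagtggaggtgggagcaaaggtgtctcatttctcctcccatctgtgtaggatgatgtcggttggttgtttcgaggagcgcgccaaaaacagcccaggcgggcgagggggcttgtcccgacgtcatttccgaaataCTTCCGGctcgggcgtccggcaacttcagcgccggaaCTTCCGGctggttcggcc
Atp5g2: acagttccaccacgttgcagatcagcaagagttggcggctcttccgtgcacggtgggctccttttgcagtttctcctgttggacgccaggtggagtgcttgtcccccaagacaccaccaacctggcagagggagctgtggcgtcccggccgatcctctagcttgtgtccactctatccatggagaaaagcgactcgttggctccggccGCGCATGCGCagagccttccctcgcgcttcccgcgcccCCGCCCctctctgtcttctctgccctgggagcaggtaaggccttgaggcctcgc

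The printed promoters differed in what they held. Cox8b had 2 copies of the E-box letters and the TATA letters, which lay after the RefSeq start, 48.3% G and C, and no match to the NRF1, ETS or Sp letters. Its ubiquitous partner Cox8a held the ETS letters 2 times, across and after the start, and no E-box or TATA box. Cox6a1 and Atp5g2 each held the NRF1 letters on both strands of 1 overlapping stretch, and Cox6a1 also held the ETS letters just before the start. Over the 34 member promoters, the NRF1 letters were found in 23.5% against 2.8% of 27025 promoters of the same length, and the ETS letters in 32.4% against 9.12%. The receptor letters were found in 14.7% against 4.66%, the YY1 letters in 5.88% against 2.88%, and the Sp letters in 35.3% against 35.9%. The E-box was found in 5.88% against 16.1% and the TATA box in 5.88% against 14.2%. These are matches of letters, with no measurement of binding.

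Of the 48 genes, 46 had a tested probe. Cox7b2 and Cox8c, which are testis forms of complex IV subunits, were well above background on 0 arrays. In bulk muscle, fewer fibres of a type and less RNA per fibre cannot be told apart. The median of the 46 genes on each array, relative to the young WT mean of each gene, was 0.03, -0.04 and 0.01 log2 in young WT and -0.05, -0.23 and -0.21 in young TauTKO. It was -0.11, -0.31 and -0.12 in old WT and -0.64, -0.30 and -0.37 in old TauTKO. Young WT was the highest group, and old TauTKO replicate 1 was the lowest array, as it was for 41 of the 46 genes taken singly. The old groups touched, since old WT replicate 2 lay just under old TauTKO replicate 2.

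**Figure D1:**
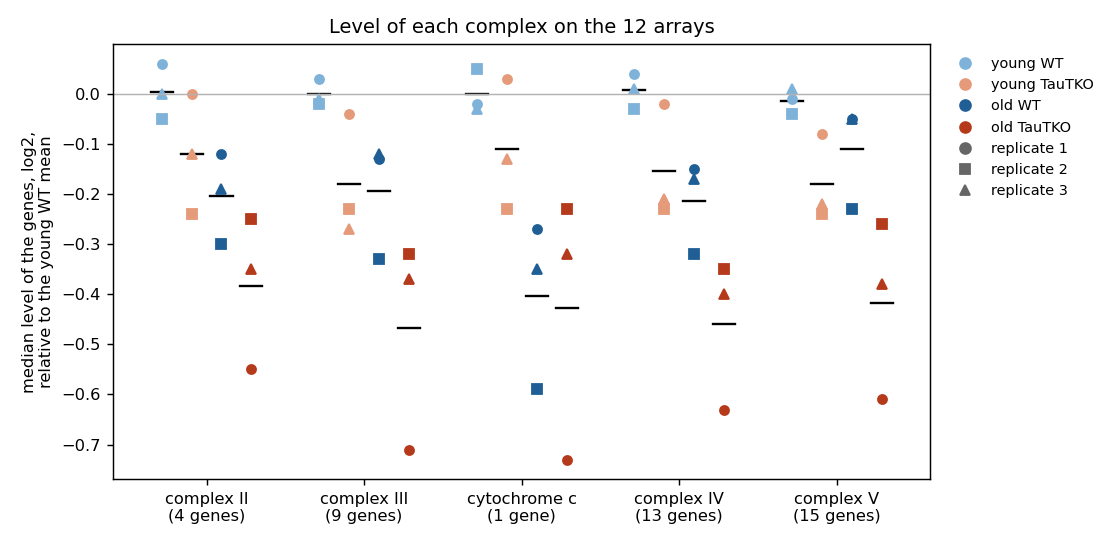
Median level of the genes of each complex on each array, in log2 relative to the young WT mean of each gene, with 1 point per mouse and a black bar at the mean of 3 mice. Each complex lay lowest in old TauTKO replicate 1 and near 0 in young WT, on values scaled to the 75th percentile of each array; without scaling between arrays the young TauTKO difference of the set is 0.02.

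The medians of the complexes were close to each other. In old TauTKO against old WT the median log2 difference was -0.20 for complex II, -0.24 for complex III, -0.22 for complex IV and -0.30 for complex V. In young TauTKO against young WT it was -0.11, -0.17, -0.16 and -0.19 in the same order. Over all 46 genes the median was -0.25 in old and -0.16 in young mice, beside -0.08 and -0.03 over all 38973 probes tested, while without scaling between arrays it was -0.04 in old mice and 0.02 in young mice. Unscaled, the median of all probes was 0.13 in old and 0.16 in young mice, and the set less all probes was -0.17 and -0.13, values that a constant per array leaves the same by construction. The same subtraction gave -0.14 and -0.07 after quantile normalization and -0.12 and -0.08 after normexp background correction. The members are bright genes, and other probes at a mean log2 signal of 5 or more had medians of -0.05 in old and -0.08 in young mice, against -0.25 and -0.17 for the 43 members at that level. Those probes were not matched to the members in level, so brightness is not accounted for in full. The 13 fast fibre genes had medians of -0.23 in old and -0.19 in young mice, and the 11 glycolysis genes -0.18 and -0.11.

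The genotype difference was below 0 for 45 of 46 genes in old mice, where 60.5% of all probes were lower, and for the same 45 genes in young mice, where 55.4% were. Among other probes with a mean log2 signal of at least 5, 64.3% were lower in old and 77.6% in young mice. Without scaling between arrays these counts were 31 and 20. The exception at both ages was Cox6b2, a testis form of a complex IV subunit, which differed by 0.03 in old and 0.07 in young mice. Its probe was dim, at a mean of -0.81, but well above background on 12 arrays. In old mice 3 of 46 genes passed the test, all lower, where 2.52% of all probes were lower and passed, and 0 members were higher and passed, where 3.58% of all probes did. At an unadjusted p under 0.05, 21 genes were lower in old TauTKO, against 12.7% of all probes. That count was 9 without old TauTKO replicate 1, against 9.18% of all probes in that fit, 7 without old WT replicate 1 and 10 without old WT replicate 3. In young mice 0 genes passed, against 0.377% of all probes lower and 0.459% higher, and 7 genes were lower at an unadjusted p under 0.05, against 6.69%. Without old TauTKO replicate 1, which enters the young comparison through the shared estimate of the spread, 13 were, and Cox8a (-0.48, adjusted p = 0.0254) and Cox8b (-0.46, adjusted p = 0.0470) passed. The share of all probes in young mice in that fit is not given, so the 13 cannot be set against 6.69%. The methods' t-test after Benjamini-Hochberg adjustment also passed 0 genes at either age. No member reached 1.8-fold in either comparison, where 2.08% of all probes were called in old and 0.375% in young mice. All old TauTKO arrays lay below all old WT arrays for 15 genes, against 15.7% of all probes, and the same held in young mice for 23 genes, against 12.6%. The groups were apart at both ages for 11 genes, against 5.45% of all probes.

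**Figure D2:**
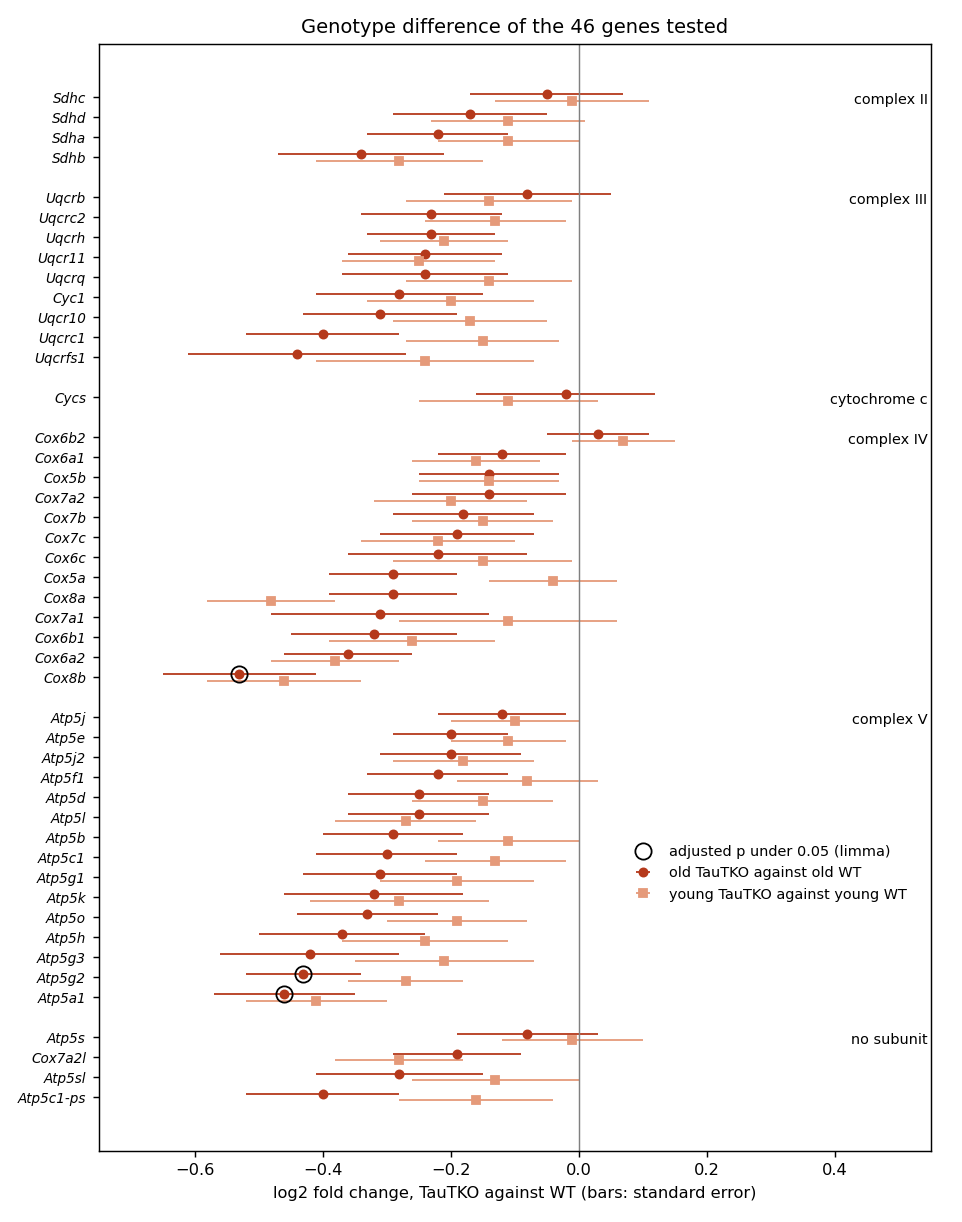
Log2 fold change of TauTKO against WT with its standard error for the 46 genes tested, by complex, in old mice (dark circles) and young mice (light squares). Values other than those of Cox6b2 lie left of 0 with the 75th percentile scaling, and the ringed points, Cox8b, Atp5g2 and Atp5a1 in old mice, passed the limma test. Without scaling between arrays 31 genes in old and 20 in young mice are below 0, where the medians of all probes are 0.13 and 0.16.

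The genes that passed in old mice were Cox8b of complex IV and Atp5a1 and Atp5g2 of complex V. Atp5a1 encodes the alpha subunit of the catalytic head of ATP synthase. It was at 8.38, 8.16 and 8.39 in old WT and at 7.66, 7.95 and 7.94 in old TauTKO. It was at 8.36, 8.33 and 8.43 in young WT and at 7.87, 7.92 and 8.10 in young TauTKO. At both ages the TauTKO arrays lay below the WT arrays, by 0.46 log2 in old mice (SE 0.11, adjusted p = 0.0403) and by 0.41 in young mice (SE 0.11, adjusted p = 0.132).

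Atp5g2 encodes subunit c, and its promoter with the NRF1 letters is printed above. Its probe (mm9 chr15:102493359-102493418, minus strand) was at 7.92, 7.78 and 7.96 in old WT and at 7.39, 7.55 and 7.43 in old TauTKO. In young mice it was at 7.96, 7.84 and 7.90 in WT and at 7.78, 7.53 and 7.60 in TauTKO. The groups did not overlap at either age, and the difference was -0.43 in old (SE 0.09, adjusted p = 0.0265) and -0.27 in young mice (SE 0.09, adjusted p = 0.247). The other probe of the gene also passed in old mice, with a difference of -0.44 (SE 0.11, adjusted p = 0.0469).

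Cox8b, the muscle form of the smallest nuclear subunit of cytochrome c oxidase, showed the largest difference of the set in old mice. Its probe (mm9 chr7:148084852-148084911, minus strand) was at 8.57, 8.50 and 8.71 in old WT and at 7.82, 8.24 and 8.15 in old TauTKO. It was at 8.70, 8.57 and 8.70 in young WT and at 8.30, 8.14 and 8.17 in young TauTKO. TauTKO arrays were the lower ones at both ages, by 0.53 in old mice (SE 0.12, adjusted p = 0.0289) and by 0.46 in young mice (SE 0.12, adjusted p = 0.115).

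The old TauTKO mean of these genes did not rest on replicate 1 for its direction, but the calls did. Without that array the difference was -0.40 for Cox8b (adjusted p = 0.0609), -0.39 for Atp5g2 (adjusted p = 0.0781) and -0.36 for Atp5a1 (adjusted p = 0.107). The single gene that then passed was Cox8a, with -0.39 (SE 0.08, adjusted p = 0.0344). In that fit 42 of 46 genes were lower and the median was -0.18, beside -0.02 over all probes. The count of genes that passed was 0 without old WT replicate 1 and 0 without old WT replicate 3. Centring each array on its median also left 0 genes past the threshold.

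**Figure D3:**
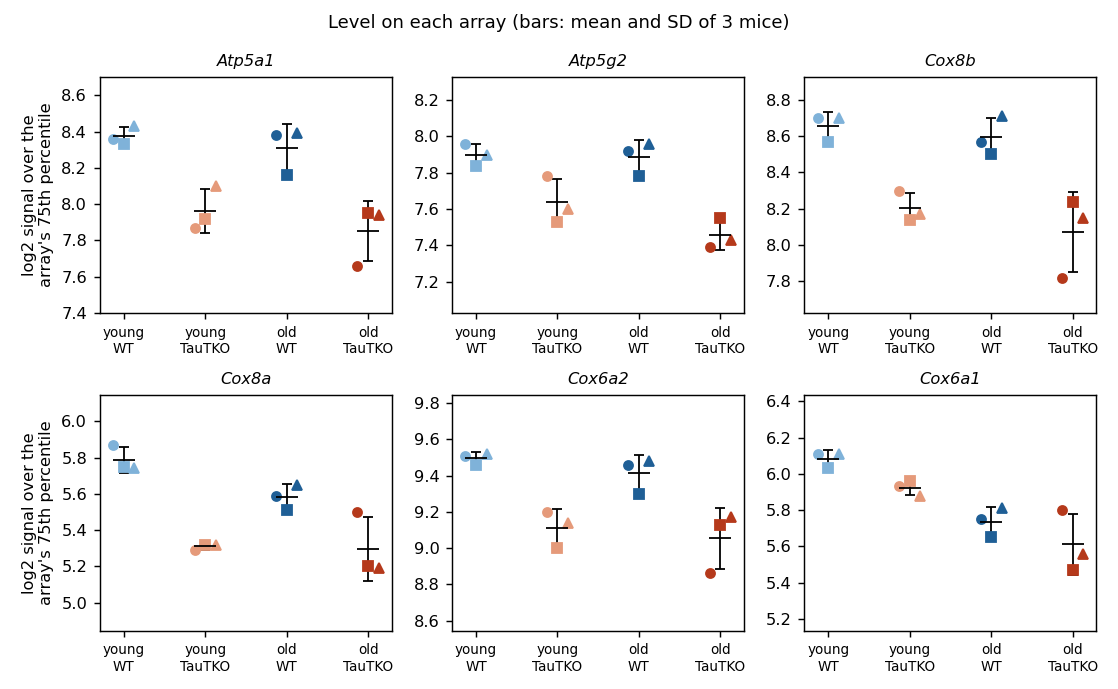
Log2 signal over the 75th percentile of the array for 6 genes on the 12 arrays, with 1 point per mouse and the mean and SD of 3 mice as black bars. Atp5a1, Atp5g2 and Cox8b passed the limma test in old mice. The probes shown of Cox8a and Cox6a2 lay lower in TauTKO at both ages without passing, and the groups of Cox6a1 overlapped in old mice. The other probe of Cox8a, not shown, passed in young mice (limma adjusted p = 0.0476).

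Complex II has 4 genes, all with a difference below 0 at both ages, and 0 passed. Sdhb, the iron-sulphur subunit, had the largest difference in old mice. It was at 8.15, 7.89 and 8.06 in old WT and at 7.41, 7.86 and 7.81 in old TauTKO, a difference of -0.34 (SE 0.13, adjusted p = 0.147), and its other probe gave -0.54 (SE 0.16, adjusted p = 0.0895). Sdhc, a membrane anchor of the complex, had the smallest difference, -0.05 in old (SE 0.12) and -0.01 in young mice (SE 0.12). Its other probe gave 0.04 in old mice, so its sign in old mice depended on the probe. The old and young differences were -0.22 and -0.11 for Sdha, the flavoprotein subunit, and -0.17 and -0.11 for Sdhd, the other anchor.

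In complex III the 9 genes were also below 0 at both ages, with 0 passed. Uqcrfs1, the Rieske iron-sulphur protein, ran from 7.08 to 7.41 in old WT and from 6.46 to 7.15 in old TauTKO, so that the groups overlapped. Its difference was -0.44 (SE 0.17, adjusted p = 0.157). Uqcrc1, a core protein, was apart between genotypes at both ages, with -0.40 in old mice (adjusted p = 0.0800) and -0.15 in young mice (adjusted p = 0.702). Uqcrb, a small subunit that takes part in binding ubiquinone, had the smallest difference, -0.08 in old mice (SE 0.13, adjusted p = 0.765). Cyc1, the cytochrome c1 subunit, differed by -0.28 in old and -0.20 in young mice.

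Cycs, the mobile carrier between complexes III and IV, was the gene closest to 0 in old mice among the bright ones. It was at 7.71, 7.39 and 7.62 in old WT and at 7.24, 7.75 and 7.65 in old TauTKO, a difference of -0.02 (SE 0.14, adjusted p = 0.936). Old TauTKO replicate 2 was the highest of these 6 arrays and old TauTKO replicate 1 the lowest. Another probe of the gene gave -0.38 in old and -0.33 in young mice, with adjusted p = 0.211 and 0.452.

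In complex IV, 12 of 13 tested genes were below 0 at both ages and 1 passed in old mice. Cox8a, the ubiquitous partner of Cox8b, had the smallest adjusted p of the set in young mice. It was at 5.87, 5.75 and 5.74 in young WT and at 5.29, 5.32 and 5.32 in young TauTKO, which lay closely together below the WT arrays. The difference was -0.48 (SE 0.10, adjusted p = 0.0583), and its other, dimmer probe gave -0.47 (adjusted p = 0.0476), so the gene passed with 1 of its 2 probes. In old mice it was at 5.59, 5.51 and 5.65 in WT and at 5.50, 5.20 and 5.19 in TauTKO, a difference of -0.29 (SE 0.10, adjusted p = 0.110). Cox5a, a nuclear subunit on the matrix side, differed by -0.29 in old (adjusted p = 0.127) and -0.04 in young mice (adjusted p = 0.932). The remaining tested subunits, Cox5b, Cox6b1, Cox6c, Cox7b and Cox7c, differed by -0.14 to -0.32 in old and by -0.14 to -0.26 in young mice. Cox4i1, the main form of subunit 4 and outside the name rule, differed by -0.24 and -0.12.

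In complex V, 11 of 15 genes were lower at an unadjusted p under 0.05 in old mice, against 12.7% of all probes, but without old TauTKO replicate 1 the count was 2 of 15, beside 5 of 13 in complex IV, where it was 5 with all arrays. Besides Atp5a1 and Atp5g2, Atp5g3 differed by -0.42 (SE 0.14, adjusted p = 0.117), Atp5h, a stalk subunit, by -0.37 (adjusted p = 0.136), and Atp5b, the catalytic beta subunit, by -0.29 (adjusted p = 0.150). Atp5j, coupling factor 6 of the stalk, had the smallest difference of the complex in old mice, -0.12 (SE 0.10, adjusted p = 0.470), beside -0.10 in young mice (SE 0.10, adjusted p = 0.770). Its other probe, dim at a mean of -1.54 but well above background on 12 arrays, gave -0.49 in old mice (adjusted p = 0.0595). The 4 names that are no subunit differed by -0.08 to -0.40 in old mice, with Atp5c1-ps at -0.40 beside -0.30 for its parent gene Atp5c1.

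Muscle and ubiquitous forms were compared through the difference of their log2 values on the same array, taken relative to the young WT mean, so that the scaling between arrays drops out. Levels of different probes were not set against each other. Cox6a2 over Cox6a1 was -0.01, 0.01 and 0.00 in young WT and -0.14, -0.38 and -0.15 in young TauTKO. It was 0.29, 0.24 and 0.25 in old WT and -0.36, 0.24 and 0.19 in old TauTKO. TauTKO lay lower at each age, but old TauTKO replicates 2 and 3 reached or nearly reached the old WT range and replicate 1 lay far under it. The mean TauTKO against WT difference over both ages was -0.23, with p = 0.005 in an exact permutation test within ages, the smallest p that 400 arrangements allow, and 0.025 after adjustment over the 5 pairs. Within old mice it was -0.24 and within young mice -0.23, with exact p = 0.1 each, the smallest that 20 arrangements allow. Without old TauTKO replicate 1 the difference over both ages was -0.14 (adjusted exact p = 0.025). It no longer passed without old WT replicate 1 (-0.22, adjusted exact p = 0.25), replicate 2 (-0.23, 0.2) or replicate 3 (-0.23, 0.2), after quantile normalization (-0.18, 0.15) or after normexp background correction (-0.22, 0.1).

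Both genes of that pair differed in how they stood by age and genotype. Cox6a2 (mm9 chr7:135349160-135349219, minus strand) was at 9.46, 9.30 and 9.48 in old WT and at 8.86, 9.13 and 9.17 in old TauTKO, a difference of -0.36 (SE 0.10, adjusted p = 0.0676). In young mice it was at 9.51, 9.46 and 9.52 in WT and at 9.20, 9.0 and 9.14 in TauTKO, a difference of -0.38 (SE 0.10, adjusted p = 0.125). Its genotype groups did not overlap at either age. Cox6a1 (mm9 chr5:115795726-115795785, minus strand) differed by -0.12 in old (SE 0.10) and -0.16 in young mice (SE 0.10), and between old and young WT by -0.35 (SE 0.10, adjusted p = 0.0711), where Cox6a2 differed by -0.08.

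**Figure D4:**
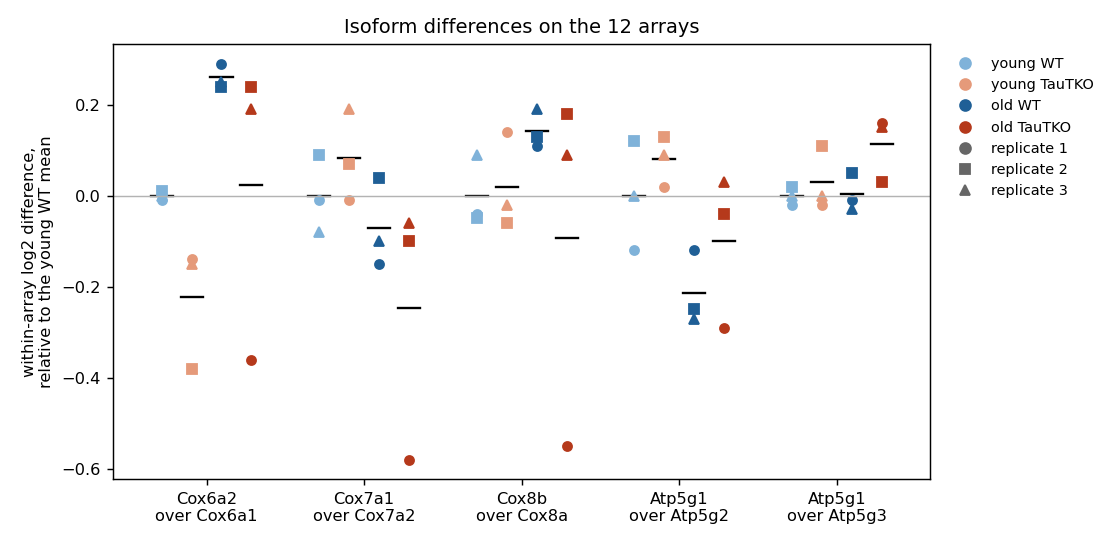
Within-array log2 difference of 2 isoform genes on the 12 arrays, relative to the young WT mean, with 1 point per mouse and a black bar at the mean of 3 mice. The mean of Cox6a2 over Cox6a1 was lower in TauTKO at both ages, but old TauTKO replicates 2 and 3, at 0.24 and 0.19, lay at or near the old WT range of 0.24 to 0.29. Old TauTKO replicate 1 was the lowest of the old arrays for the pairs of Cox6a, Cox7a and Cox8.

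The other pairs did not pass. Cox7a1 over Cox7a2 was -0.01, 0.07 and 0.19 in young TauTKO and -0.58, -0.10 and -0.06 in old TauTKO, and the genotype difference over both ages was -0.04 (exact permutation p = 0.795, adjusted p = 0.795). Its old value of -0.17 rested on replicate 1, and without that array the difference over both ages was 0.04. Cox8b over Cox8a was 0.14, -0.06 and -0.02 in young TauTKO and -0.55, 0.18 and 0.09 in old TauTKO, with a genotype difference of -0.11 (exact permutation p = 0.565, adjusted p = 0.706) that was 0.00 without old TauTKO replicate 1. The muscle form Cox8b and the ubiquitous form Cox8a were both at lower values in TauTKO, and a difference between them was not detected with 3 arrays per group. For the genes of subunit c, Atp5g1 over Atp5g2 differed by 0.10 (exact permutation p = 0.16, adjusted p = 0.267) and Atp5g1 over Atp5g3 by 0.07 (exact permutation p = 0.1, adjusted p = 0.25). For none of the 5 pairs did the genotype difference itself differ between ages, with exact p from 0.205 for Cox7a to 0.99 for Cox6a.

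Single genes of the pairs were as follows. Cox7a1 ran from 8.56 to 8.69 in old WT, while old TauTKO replicate 1 was at 7.84 beside 8.62 and 8.51 in the other 2 arrays, and the difference was -0.31 (SE 0.17, adjusted p = 0.306). Cox7a2 differed by -0.14 in old (SE 0.12, adjusted p = 0.529) and -0.20 in young mice (SE 0.12, adjusted p = 0.578). Atp5g1 was at 8.82, 8.55 and 8.71 in old WT and at 8.12, 8.53 and 8.48 in old TauTKO, a difference of -0.31 (SE 0.12, adjusted p = 0.156). The groups of Atp5g1 did not overlap, but the nearest arrays lay close together.

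Age was compared within each genotype, on different slides. In old against young WT the median over the 46 genes was -0.20, beside 0.03 over all probes, and 43 genes were below 0, where 45.2% of all probes were. No gene passed with limma, against 2.4% of all probes that were lower and passed. At an unadjusted p under 0.05, 4 genes were lower, against 9.65%, and Cox6b2 was higher. Without old TauTKO replicate 1, in a fit with a smaller shared spread, 14 genes were lower at that p and Cox6a1 (-0.35, adjusted p = 0.0278), Cox7a1 (-0.33, adjusted p = 0.0447) and Cycs (-0.40, adjusted p = 0.0493) passed. The share of all probes in that fit is not given, so the 14 cannot be set against 9.65%. All old WT arrays lay below all young WT arrays for 28 genes, against 14.2% of all probes. By complex the medians were -0.20, -0.20, -0.21 and -0.12 for complexes II to V. The largest difference was that of Cycs, -0.40 (SE 0.14, adjusted p = 0.127).

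In old against young TauTKO the median was -0.24, beside 0.01 over all probes, and 45 genes were below 0, where 49.2% of all probes were. Cox5a passed, where 2.61% of all probes were lower and passed, and 19 genes were lower at an unadjusted p under 0.05, against 10.2%. Cox5a was at 8.78, 8.73 and 8.62 in young TauTKO and at 8.18, 8.09 and 8.44 in old TauTKO, which lay apart, a difference of -0.47 (SE 0.10, adjusted p = 0.0312). It did not pass without young WT replicate 1, without any 1 of the young TauTKO replicates 1 to 3, or without old TauTKO replicate 2. Without old TauTKO replicate 1 it was at -0.44 and did not pass either (adjusted p = 0.0596), Cox6a1 passed (-0.41, adjusted p = 0.0279), and 6 genes were lower at an unadjusted p under 0.05. The share of all probes in that fit is not given, so the 6 cannot be set against 10.2%. All old TauTKO arrays lay below all young TauTKO arrays for 23 genes, against 12% of all probes. Without old TauTKO replicate 1 the median was -0.14, beside 0.06 over all probes. The difference of the genotype effects between ages was below 0 for 36 of 46 genes and passed for 0 members and 0 probes, and 0 members had an unadjusted p under 0.05, against 5.43% of all probes.

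Probes other than the brightest gave the same picture in most cases. Of the 78 probes of these genes 76 were tested. In old mice 73 were below 0, where 60.5% of all probes were, and 4 were lower and passed, where 2.52% of all probes did. These 4 belong to 3 genes, since both probes of Atp5g2 are among them. In young mice 74 were below 0, where 55.4% of all probes were, and 1 was lower and passed, where 0.377% of all probes did. Many of these genes have processed copies in the genome, and signal from such copies cannot be told apart from that of the gene. The brightest Atp5j2 probe maps to chromosome 9 in mm9 while the RefSeq gene is on chromosome 5, with -0.20 in old mice against -0.30 for the probe on chromosome 5. The brightest Atp5l probe maps to chromosome X, with -0.25 against -0.15 to -0.22 for 5 probes on chromosome 9.

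Other genes of oxidative metabolism stood near the members. Of 37 nuclear complex I genes, 35 were below 0 in old TauTKO with a median of -0.21 and 0 passed, and 34 were below 0 in young TauTKO with a median of -0.20. Of 13 mitochondrially encoded genes, 12 were below 0 at both ages, with medians of -0.26 and -0.20, and ND5, a complex I core subunit, passed in old mice (-0.66, adjusted p = 0.0400). All 13 beta oxidation genes were below 0 in old mice, with a median of -0.38. Hadh (-0.64, adjusted p = 0.00822), Echs1 (-0.77, adjusted p = 0.00852) and Acadm (-0.45, adjusted p = 0.0265), enzymes of that cycle, passed. Of 27 genes of mitochondrial content, 25 were below 0 with a median of -0.25, and Cs, citrate synthase, passed (-0.39, adjusted p = 0.0452). The 11 glycolysis genes had a median of -0.18 in old and -0.11 in young mice, with 0 passed.

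Assembly factors and regulators were counted in the same way. Of 29 assembly factors, 16 were below 0 and 13 above in old TauTKO, with a median of -0.02, 18 were below 0 in young TauTKO, with a median of -0.07, and 27 were below 0 in old against young WT, with a median of -0.19. Sdhaf1, which helps to insert iron-sulphur clusters into complex II, was lower (-0.43, adjusted p = 0.0285), and Cox19, a copper protein needed for complex IV, was higher (0.39, adjusted p = 0.0298). Of 17 regulators, 6 were below 0 and 11 above, with a median of 0.03. Esrrg, an oestrogen-related receptor of oxidative muscle, was higher (0.71, adjusted p = 0.0122), whereas Nrf1 (0.16), Gabpa (0.09), Esrra (0.03) and Ppargc1a (-0.39, adjusted p = 0.230) did not pass. In young mice 0 of the genes in these lists passed.

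**Figure D5:**
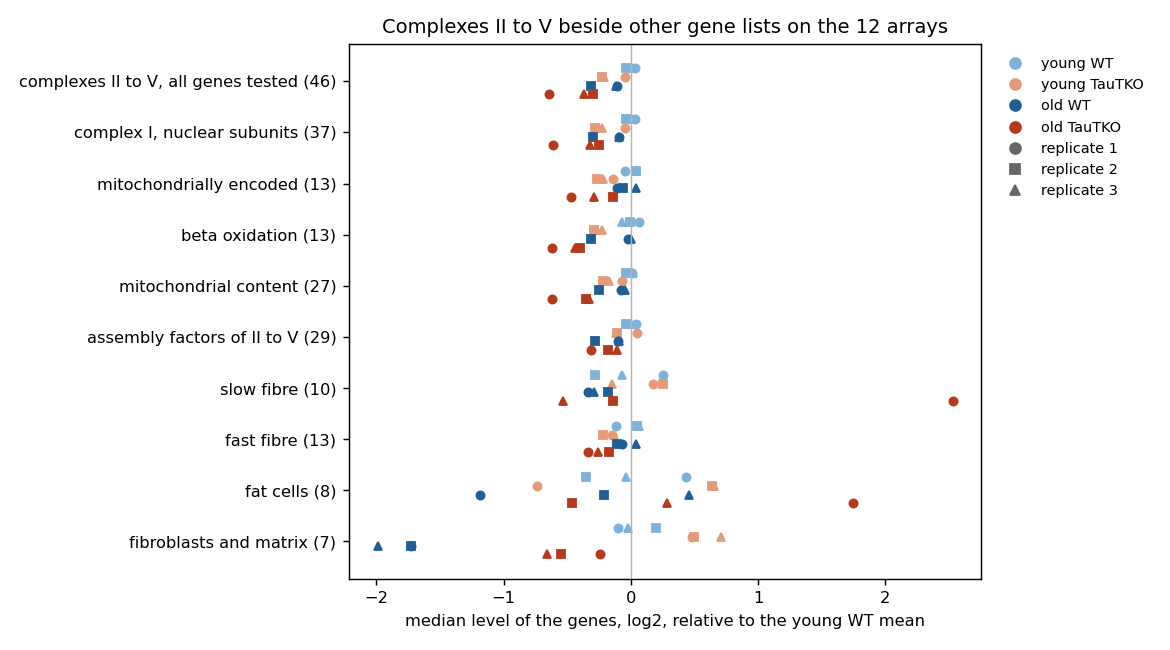
Median level of each gene list on each array, in log2 relative to the young WT mean, with 1 point per mouse and the number of genes in parentheses. The complexes II to V lie near complex I, mitochondrially encoded, beta oxidation and mitochondrial content genes, and the slow fibre and fat cell lists are highest in old TauTKO replicate 1, at 2.53 and 1.75.

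Markers of fibre type and of other cells also differed between groups, and their part in the results was not tested. Of 10 slow fibre genes, Myl3 passed in old mice and was lower (-4.18, adjusted p = 0.0490), and 8 were above 0. The summed slow fibre level was 6.91 to 7.83 log2 in young WT, 5.64 to 6.01 in young TauTKO, 6.18 to 7.10 in old WT and 4.83 to 8.01 in old TauTKO. Of 13 fast fibre genes, the muscle type of this tissue, 12 were below 0 in old and 11 in young mice, with medians of -0.23 and -0.19 and 0 passed. The summed fast fibre level was 13.34 to 13.51 in young WT, 13.23 to 13.32 in young TauTKO, 13.33 to 13.47 in old WT and 13.08 to 13.24 in old TauTKO. Of the 7 fibroblast and matrix genes 5 passed and were higher in old TauTKO, with a median of 0.79, and their summed level was 7.25 to 7.39 in old WT and 7.80 to 8.08 in old TauTKO. Of the 7 macrophage genes tested 5 passed and were higher, with a median of 0.82 and a summed level of 5.88 to 5.99 in old WT and 5.42 to 6.0 in old TauTKO. Of the 8 fat cell genes 0 passed, and the summed level was 5.94 to 6.58 in old WT and 6.46 to 7.55 in old TauTKO, while Ucp1, the brown fat marker, was not well above background in any group. Genes that passed and were higher in the lists of other cells were Cpa3, Mcpt4 and Cma1 of 8 mast and B cell genes (1.18 to 1.66), Vwf of 6 endothelial genes (0.40), and Chrna1 (0.49) and Runx1 (1.44) of 10 denervation genes, with 0 of 5 Schwann cell genes. As whole lists in old mice, 4 of the 6 endothelial genes were below 0, with a median of -0.15. Of the 8 mast and B cell genes 4 were below 0, with a median of -0.11. Of the 10 denervation genes 3 were below 0, with a median of 0.33. In young mice the single gene of these marker lists that passed was Lum, a matrix gene (0.92, adjusted p = 0.0406).

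Without old TauTKO replicate 1 the neighbours of the members kept their sign as medians, and fewer genes passed. The medians in old mice were -0.11 for complex I, -0.17 for mitochondrially encoded genes, -0.31 for beta oxidation with 2 genes passed, -0.16 for mitochondrial content and -0.17 for fast fibre genes. The slow fibre median turned from 0.93 to -0.11 and the fat cell median from 0.61 to -0.19, while complexes II, III, IV and V were at -0.13, -0.14, -0.13 and -0.19. In that fit 0 genes passed among the mitochondrially encoded, mitochondrial content and endothelial genes. Of the assembly factors 0 passed lower and 2 higher. Among the macrophage genes 2 passed instead of 5, and among the fibroblast and matrix genes 3 instead of 5, all higher.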

How the data were processed

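RNA from tibialis anterior muscle was hybridised to 12 Agilent 1-colour arrays, 1 per mouse and 3 per group. The authors deposited scanner files with the processed intensity of each spot (background-subtracted by Agilent Feature Extraction 10.10.1.1, per the submitters' processing notes). Intensities joined over the 12 arrays were deposited too, and 100% of these values equalled those of a scanner file. In these joined intensities the columns of old WT 1 and 2, and of old TauTKO 1 and 2, matched each other's scanner files. For that reason the scanner files were used. The columns of other samples numbered 0.

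The processed intensity was divided by the array's 75th percentile over the probes and taken to log2, 1465 outlier spots were dropped, and repeated spots averaged per probe. The test took in 38973 of 55681 probes, those detected well above background throughout at least 1 group. All 4 groups were fitted together with limma 3.58.1 in R 4.3.3 (package data.table, version 1.17.8) and p-values adjusted by Benjamini-Hochberg over all probes tested. Isoform differences were tested by two-sided exact permutation within ages. Probe positions are those of the deposited files (mm9), and 46 of 48 genes matched a RefSeq accession. The fit was tested on simulated data.

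Named with values were the genes of 5 isoform pairs, those past the adjusted p, and the largest and smallest change of each complex, with other probes where sign or call differed. Other members named, among them Uqcrc1, Cyc1, Sdha, Sdhd, Cox5a, Atp5b and Atp5h, and other members' probes were chosen after their values were seen. Members and gene lists were chosen with earlier results of these data known. The alternatives were other scaling, background correction, filters, probe summaries, blocks, weights and tests, the values of the deposited series, and leaving out each array. No scaling between arrays, the bright probes, and the members and lists without old TauTKO replicate 1 were added after seeing the data. The number of arrays limits the precision.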

Additional observations from a re-analysis of the deposited data

How the results depend on the processing

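The number of genes past the adjusted p in old TauTKO against old WT, 3 in the report, was 0 after centring on the array median, without the filter on dim probes, without scaling between arrays, with only the groups compared, with a replicate block, by the methods' t-test, and with the 1.8-fold threshold. It was 1 with the row on the slide as a block and 6 with an intensity trend, and leaving out 1 array gave 0 to 3. In young mice the count of 0 became 1 with normexp, with the mean of all probes or with probes well above background on all 12 arrays, 3 with the trend and 4 with array quality weights, and 0 to 2 with 1 array left out. For age in WT the count of 0 became 1 with normexp, the trend or weights, and 0 to 3 with 1 array left out. For age in TauTKO the count of 1 became 0 under the same settings as in old mice other than the row block, and also after quantile normalization, 3 with normexp, 2 with the trend, 2 with weights, and 0 to 1 with 1 array left out. The count for the difference between ages was 0 wherever it was run.

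Without scaling between arrays the median of the members was -0.04 in old and 0.02 in young mice, and after quantile normalization it was -0.07 in young mice. With 1 array left out it lay between -0.32 and -0.18 in old and between -0.23 and -0.14 in young mice. Cox6a2 over Cox6a1 lay between -0.28 and -0.14 with 1 array left out and was -0.18 after quantile normalization and -0.22 after normexp. With the replicate block, where the signs of the same-number differences were permuted, it was -0.23 (adjusted exact permutation p = 0.156). That is the smallest adjusted p a single pair can reach there, so the pair could not pass alone in this setting. Cox7a1 over Cox7a2 lay between -0.09 and 0.04 and Cox8b over Cox8a between -0.18 and 0.00 with 1 array left out.

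Signs turned for small differences, given as old and young where both did. Without scaling between arrays they were 0.08 and 0.09 for Atp5j, 0.08 and 0.02 for Cox6a1, 0.18 and 0.07 for Cycs, 0.16 and 0.18 for Sdhc, 0.13 and 0.04 for Uqcrb, 0.07 for young Cox7a1 and 0.06 for old Cox7a2. Centring on the array median gave 0.07 for old Cycs, 0.05 and 0.03 for Sdhc and 0.02 for old Uqcrb, and quantile normalization gave 0.07 and 0.00 for Cycs, 0.00 and 0.07 for Sdhc and 0.02 for old Uqcrb. Weights gave 0.06 for old Cycs and 0.01 for old Sdhc, normexp -0.01 for old Cox6b2 and 0.01 for young Sdhc, and the row block 0.01 for old Cycs and 0.00 for young Sdhc. With 1 array left out old Cox6b2 reached -0.03 and old Uqcrb 0.04, while old Cycs ran from -0.12 to 0.13 (0.00 without another array), old Sdhc from -0.13 to 0.05 and young Sdhc from -0.11 to 0.07. The causes were not tested.

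Same-numbered arrays did not deviate together, with correlations of 0.00, 0.04 and 0.32 in young and -0.14, 0.06 and -0.05 in old mice, so the numbers were not taken as pairs. With the replicate block, the adjusted p in old mice was 0.109 for Atp5a1, 0.0839 for Atp5g2 and 0.0776 for Cox8b. Over the alternatives it ran from 0.0137 to 0.257, from 0.00662 to 0.307 and from 0.00915 to 0.213 in the same order.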
